A study of Mus musculus with 8 samples.

Results

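The 9 genes described here encode receptors for Wnt proteins: the Frizzled receptors Fzd3, Fzd4, Fzd5, Fzd6, Fzd7 and Fzd8, the co-receptors Lrp5 and Lrp6, and the receptor Ryk. They were named as a list with earlier results of these arrays in view. Each is represented by the probe set selected on the highest mean over the 8 arrays, but every member had just 1 probe set, so this choice decided nothing. They are 9 of the 29915 genes that the array's annotation names by a single symbol. Expression was measured in long-term haematopoietic stem cells (LT-HSC) of mouse bone marrow, with 1 Affymetrix array per sample. The sort kept cells that were Lin- and negative for CD48 and Flk2, and positive for CD150, cKit and Sca.

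The arrays form 4 groups of 2. Cells came from wild-type (WT) mice or from CD169DTR/+ mice (CD169-DTR below), which carry a diphtheria toxin receptor in cells that make CD169. All mice, the WT controls included, had received diphtheria toxin, which removes CD169+ macrophages from CD169DTR/+ mice. At 72 h after the toxin they were given total body irradiation of 2 Gy or a sham treatment, and LT-HSC were taken 5 days later. The replicates came from distinct experiments per the series' design text. The number of mice behind an array is not given in the sources used here, so p-values measure the spread between these arrays. The macrophages themselves were not measured, since the sort removes them.

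Frizzled receptors are membrane-spanning proteins with a cysteine-rich outer domain that binds Wnt. Together with Lrp5 or Lrp6 they recruit Dishevelled and Axin to the membrane, which stabilises beta-catenin and turns on genes with Tcf and Lef factors. Frizzled receptors also signal without beta-catenin, through planar cell polarity and calcium, and Ryk binds Wnt through a domain of its own. In the bone marrow niche Fzd8 is known as a receptor of LT-HSC that acts with the cadherin Celsr2 to hold them in quiescence, apart from beta-catenin.

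The RefSeq promoter table (mouse build GRCm38.p6) held 4 of the 9 receptors, namely Fzd4, Fzd5, Fzd7 and Ryk. Fzd4 and Fzd5 are shown because they are the members whose 4 WT arrays and 4 CD169-DTR arrays did not overlap. The 250 bases before the annotated start of Fzd4 (chr7:89404116-89404365, plus strand) and of Fzd5 (chr1:64737751-64738000, minus strand) read 5′ to 3′ as follows, with the GC box GGGCGG and the CCAAT box on either strand in capitals.
Fzd4: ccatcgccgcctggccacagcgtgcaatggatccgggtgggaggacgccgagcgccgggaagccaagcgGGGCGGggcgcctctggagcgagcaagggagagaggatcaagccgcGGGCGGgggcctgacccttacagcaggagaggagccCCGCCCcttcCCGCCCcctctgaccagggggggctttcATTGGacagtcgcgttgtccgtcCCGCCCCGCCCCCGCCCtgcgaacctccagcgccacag
Fzd5: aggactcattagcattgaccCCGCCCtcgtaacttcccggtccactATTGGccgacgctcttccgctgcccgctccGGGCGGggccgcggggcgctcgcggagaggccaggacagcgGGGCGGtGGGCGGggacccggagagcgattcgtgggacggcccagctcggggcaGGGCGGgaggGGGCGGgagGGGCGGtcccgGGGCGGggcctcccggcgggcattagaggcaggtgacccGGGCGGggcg

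Both stretches are rich in G and C, with 72.8% in Fzd4 and 76.4% in Fzd5, against a median of 52.4% over the 32851 stretches of that length in the table. Fzd4 holds the GC box 7 times, with 1 neighbouring pair sharing a base, and Fzd5 holds it 9 times. At least 1 GC box occurs in 32.7% of all stretches and at least 1 CCAAT box in 33.8%, and Fzd4 and Fzd5 each have 1 CCAAT box. The Tcf and Lef motif ATCAAAG, which 3.21% of all stretches hold, is not in these letters of Fzd4, Fzd5, Fzd7 or Ryk. Nor are the Ets motif CCGGAAG (6.91% of stretches), the Gata motif AGATAA (9.99%) or the E-box CACGTG (6.02%).

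The arrays give log2 values after RMA, the robust multi-array average. Their medians lay between 4.76 and 4.93, and the r between the arrays of a group, over all probe sets, was 0.9898 to 0.994. Since olfactory receptor genes are not expected in blood stem cells, the 95th percentile of their 1080 probe sets on each array (4.63 to 4.87) served as a mark of dim signal, a mark chosen after the data were seen. Kit lay between 14.25 and 14.93 and Slamf1, the gene of CD150, between 10.66 and 12.38, and 14 of the 14 measured LT-HSC markers were above this mark on every array. Transcripts of genes the sort selects against were present and moved with the groups. Cd48 was at 11.24 and 10.98 in WT non-irradiated, 12.95 and 12.14 in WT 2 Gy, 11.05 and 12.54 in CD169-DTR non-irradiated and 13.47 and 13 in CD169-DTR 2 Gy cells, so the irradiated arrays lay above their controls. Flt3, the gene of Flk2, lay below them after 2 Gy, at 7.99 and 7.12 against 6.45 and 6.65 in WT and at 7.37 and 8.22 against 5.85 and 6.48 in CD169-DTR. The part of these Cd48 and Flt3 differences in the receptor values was not tested. Siglec1, the gene of CD169, lay below it at 3.86 to 4.12. Cdkn1a, a p53 target, separated the 2 Gy arrays (13.06 to 13.41) from the others (7.86 to 9.79). WT 2 Gy replicate 1 and CD169-DTR 2 Gy replicate 2 stood apart on the first principal component (29.5 and 40.3, against -25.7 to 6.6 for the other arrays). That component also separated all 2 Gy arrays (3.2 to 40.3) from all non-irradiated arrays (-25.7 to -12.8). On the second component the same arrays lay at opposite ends (-45.3 and 36.7, against -11.6 to 12.7 for the others).

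Fzd3, Fzd6, Fzd8, Lrp5, Lrp6, Ryk and Fzd4 were above the mark of dim signal on all 8 arrays and Fzd5 on 7 of them. Fzd4 was close to it in CD169-DTR non-irradiated cells, at 4.80 and 4.76 against marks of 4.77 and 4.63, so a difference measured from there may be compressed. Fzd7 did not exceed the mark on any array.

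**Figure D1:**
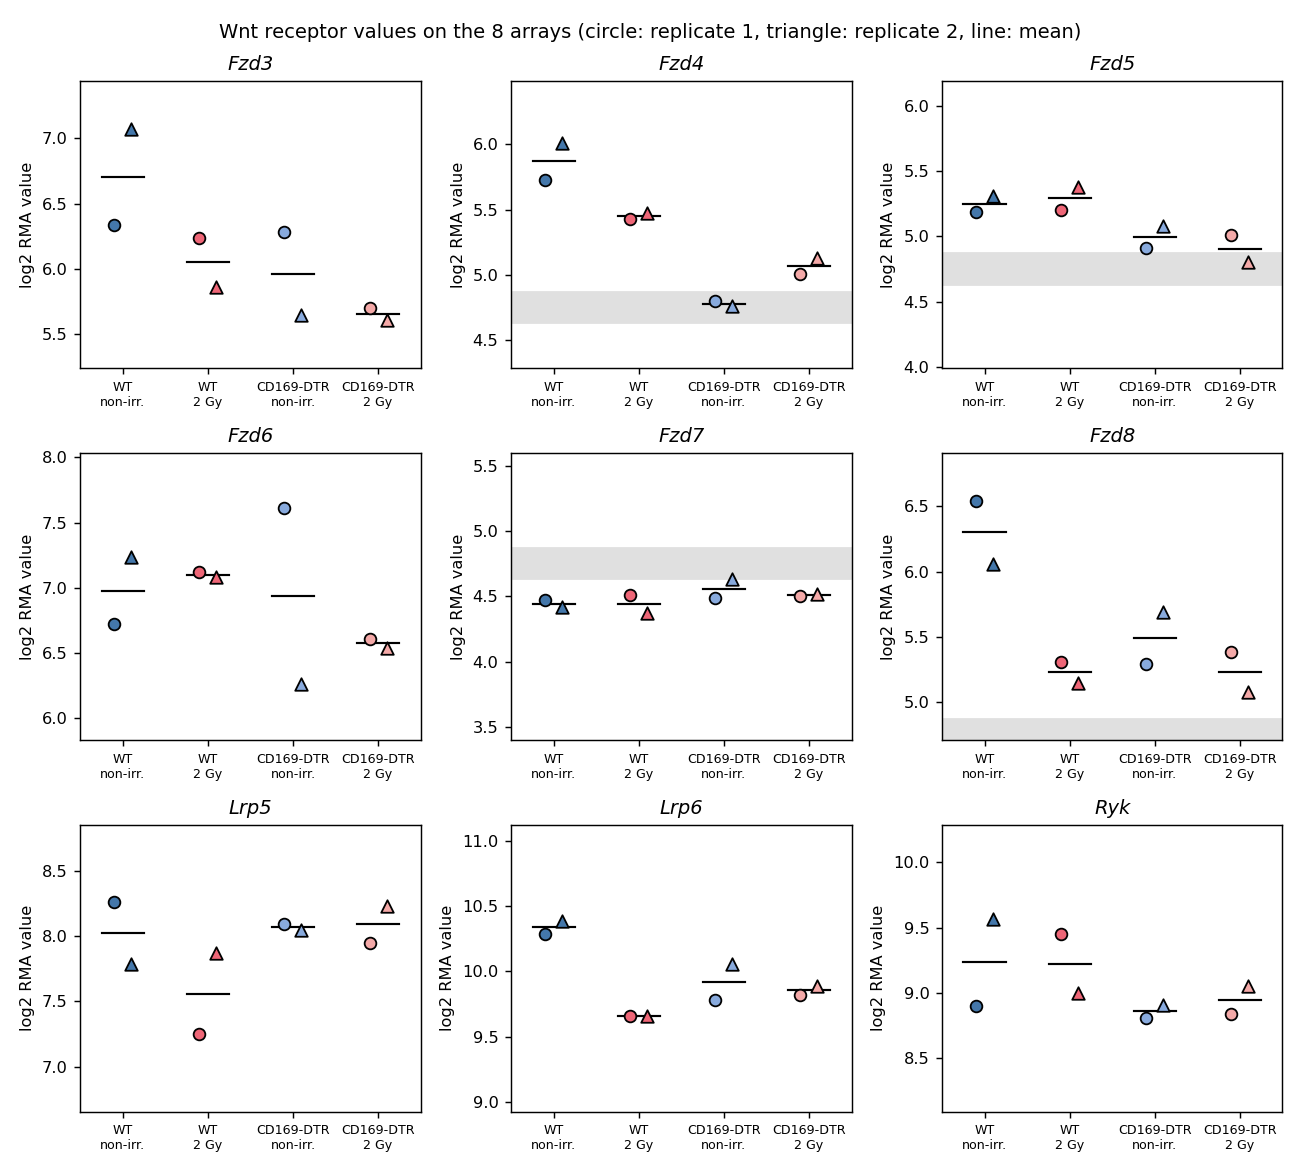
Log2 RMA value of each of the 9 Wnt receptors on the 8 arrays, by group, with circles for replicate 1, triangles for replicate 2 and a line for the group mean; all panels have the same log2 span, centred on their own values, and the grey band is the range of the mark of dim signal over arrays (4.63 to 4.87). Fzd3, Fzd4, Fzd8 and Lrp6 have both WT non-irradiated arrays above all other arrays, and Fzd7 lies at or below the band.

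The first question was what differed in WT LT-HSC 5 days after 2 Gy. Of the 9 receptors 0 passed in limma at an adjusted p under 0.05, where 0.0099% of all 30294 probe sets did (3 of them). At an unadjusted p under 0.05 there were 3 receptors, Fzd8, Lrp6 and Fzd4, all lower after irradiation, against 7.81% of all probe sets. In 4 receptors both irradiated arrays lay below both controls, where 13.2% of all probe sets did so. The median difference of the 9 was -0.42 log2, with 7 lower and 2 higher, and that of all probe sets was 0.075. In sorted bulk cells, fewer cells with a transcript and less transcript per cell cannot be told apart.

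Fzd8 stood at 6.54 and 6.06 log2 in WT non-irradiated cells and at 5.31 and 5.15 in WT 2 Gy cells. Both irradiated values lie below both controls by more than the controls differ from each other. The difference was -1.07 ± 0.22 log2 (SE), a level 2.10-fold lower, with a 95% interval of -1.60 to -0.54, an unadjusted p of 0.00225 and an adjusted p of 0.399 in limma. Over 17 alternatives the difference lay between -1.31 and -0.83 log2.

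Lrp6, the co-receptor that Wnt bridges to a Frizzled protein, had 10.29 and 10.39 in WT non-irradiated cells and 9.66 on both WT 2 Gy arrays. Its groups do not overlap and its replicates lay close together. The log2 difference was -0.68 ± 0.13 (SE), 1.60-fold lower, with a 95% interval of -0.999 to -0.361 (unadjusted p = 0.00166, adjusted p = 0.394 in limma). Lrp5, its paralogue and also a co-receptor of the beta-catenin branch, had 8.26 and 7.79 against 7.25 and 7.87. The Lrp5 groups overlap, and its 95% interval ran from -1.06 to 0.134.

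Fzd4, a receptor for Wnt and for the ligand Norrin, had 5.73 and 6.01 in WT non-irradiated cells and 5.43 and 5.47 after 2 Gy. The log2 difference was -0.42 ± 0.13 (SE), 1.34-fold lower (unadjusted p = 0.0178, adjusted p = 0.566 in limma). It was smallest, at -0.28, without WT non-irradiated replicate 2. Fzd3, a receptor known for planar cell polarity, had 6.34 and 7.07 against 6.24 and 5.86. Its groups lie apart by 0.1 log2, less than either pair of replicates, and the difference of -0.655 ± 0.305 (SE) had an unadjusted p of 0.071. The other receptors, Fzd5, Fzd6, Fzd7 and Ryk, had differences between -0.01 and 0.12 log2. For Fzd6 the interval was as wide as -0.868 to 1.108, so sizeable changes either way are compatible with its values.

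In CD169-DTR mice the same comparison gave smaller differences for Fzd8, Lrp6 and Fzd4. In limma 0 of the 9 passed (0% of all probe sets did), and 0 had an unadjusted p under 0.05, against 6.77% of all probe sets. Fzd8 had 5.29 and 5.69 in non-irradiated and 5.38 and 5.08 in 2 Gy cells, which overlap. Its difference was -0.26 ± 0.22 log2 (SE), with a 95% interval of -0.79 to 0.27. Lrp6 had 9.78 and 10.06 against 9.82 and 9.89, a difference of -0.065 with an interval of -0.384 to 0.254. Fzd4 went the other way, from 4.80 and 4.76 to 5.01 and 5.13, a difference of 0.29 ± 0.13 log2 (SE, unadjusted p = 0.0693, adjusted p = 0.776 in limma). It was the only receptor of the 9 whose groups do not overlap here, on the higher side, where 17.8% of all probe sets lay; 0 receptors and 13.4% of all probe sets lay apart on the lower side. Fzd6 had 7.61 and 6.26 in the CD169-DTR non-irradiated replicates, the widest gap between partners of any receptor, and 6.61 and 6.54 after 2 Gy. Without CD169-DTR non-irradiated replicate 2, 1 receptor had an unadjusted p under 0.05 in this comparison.

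The difference between these irradiation effects was tested directly. In limma 0 of 9 receptors passed (0% of all probe sets), and 3 of 9 had an unadjusted p under 0.05, against 5.17% of all probe sets. These were Fzd4 with 0.71 ± 0.19 log2 (SE, unadjusted p = 0.00799), Fzd8 with 0.81 ± 0.31 (0.0381) and Lrp6 with 0.615 ± 0.19 (0.0149). Their adjusted p in limma was 0.874, 0.933 and 0.913. Each was positive because the change after 2 Gy was less negative, or positive, in CD169-DTR. After 2 Gy the mean of Fzd8 was 5.23 in both genotypes. Fzd4 then had 5.07 in CD169-DTR against 5.45 in WT, and Lrp6 9.855 against 9.66. Without irradiation CD169-DTR was lower, with 5.49 against 6.3 for Fzd8, 4.78 against 5.87 for Fzd4 and 9.92 against 10.34 for Lrp6. The test shares the WT non-irradiated arrays with the comparison in WT. Without both 2 Gy arrays that stood apart, the difference was 0.63 log2 for Fzd4, 1.04 for Fzd8 and 0.58 for Lrp6. That fit has no replicate in either 2 Gy group, so only the sizes are given.

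**Figure D2:**
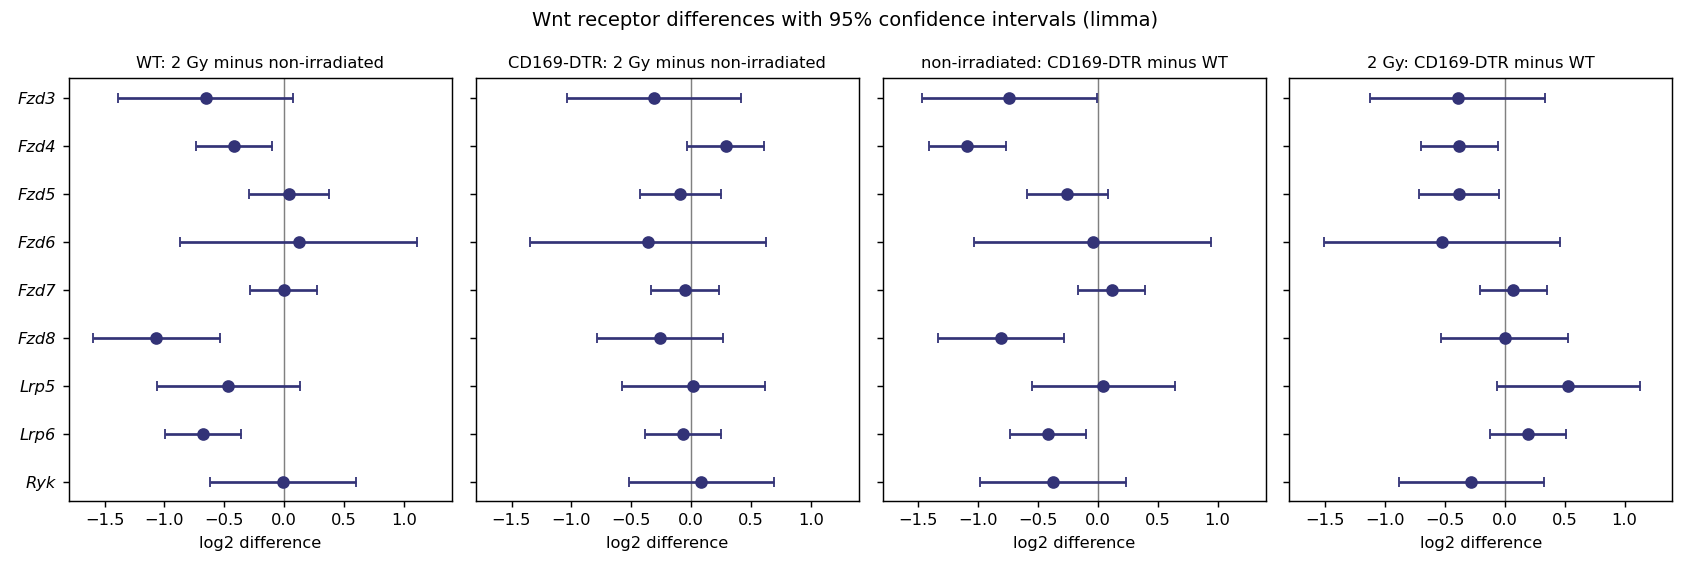
Log2 difference of each Wnt receptor (x axis) in 4 comparisons, with points for the estimate and bars for the 95% confidence interval from limma. In WT after 2 Gy and in non-irradiated CD169-DTR against WT, the intervals of Fzd4, Fzd8 and Lrp6 lie below 0, and those of Fzd6 are the widest.

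The next question was what differed between CD169-DTR and WT LT-HSC without irradiation, both after toxin. An effect of macrophage loss and one of the CD169DTR allele itself cannot be told apart here. CD169-DTR non-irradiated cells were compared with the same WT non-irradiated arrays that served as controls above, so the values of both comparisons share those arrays. In limma 0 of 9 receptors passed (0% of all probe sets). At an unadjusted p under 0.05 there were 4 of 9, against 4.38% of all probe sets, and this count was 2 without WT non-irradiated replicate 2. In 5 receptors, Fzd3, Fzd4, Fzd5, Fzd8 and Lrp6, both CD169-DTR arrays lay below both WT arrays, as for 11.9% of all probe sets. Fzd7, dim throughout, was the 1 receptor on the higher side, where 19.1% of all probe sets lay. The median difference of the 9 receptors was -0.375 log2 and that of all probe sets was 0.03.

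Fzd4 showed the widest gap of the 9 here, at 5.73 and 6.01 in WT and 4.80 and 4.76 in CD169-DTR. The difference was -1.09 ± 0.13 log2 (SE), 2.13-fold lower, with a 95% interval of -1.41 to -0.77 and an unadjusted p of 0.000113. Its adjusted p in limma was 0.936. Over 17 alternatives the log2 difference lay between -1.23 and -0.95, with an adjusted p between 0.412 and 1. Fzd8 was at 6.54 and 6.06 against 5.29 and 5.69, a difference of -0.81 ± 0.22 (SE, unadjusted p = 0.009). Fzd3 was at 6.34 and 7.07 against 6.28 and 5.65, a difference of -0.74 ± 0.305 (unadjusted p = 0.0476) that ranged from -1.105 to -0.375 as single arrays were left out, the latter without WT non-irradiated replicate 2 and -0.425 without CD169-DTR non-irradiated replicate 2. Lrp6 was at 10.29 and 10.39 against 9.78 and 10.06, a difference of -0.42 ± 0.13 (unadjusted p = 0.0173). The adjusted p of Fzd8, Fzd3 and Lrp6 was 0.999 each in limma.

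After 2 Gy, the genotypes differed less in Fzd8 and Lrp6. Fzd8 had a difference of 0 log2, with an interval of -0.53 to 0.53. Lrp6 was at 9.66 on both WT arrays and at 9.82 and 9.89 in CD169-DTR, 0.195 log2 higher (interval -0.124 to 0.514). Fzd4 was lower in CD169-DTR, at 5.01 and 5.13 against 5.43 and 5.47 (-0.38 ± 0.13 log2, unadjusted p = 0.0267). Fzd5, a Frizzled protein closely related to Fzd8, was at 5.01 and 4.80 against 5.20 and 5.38 (-0.385 ± 0.14, unadjusted p = 0.0306). In limma 0 of 9 passed (0% of all probe sets), with adjusted p of 0.645 for Fzd4 and 0.648 for Fzd5, and these 2 of 9 had an unadjusted p under 0.05 against 7.57% of all probe sets. That count was 1 without any single 2 Gy array, 1 with cyclic loess, 0 with median centring and 0 without both 2 Gy arrays that stood apart. Both CD169-DTR arrays lay below both WT arrays in 4 of 9 receptors (Fzd3, Fzd4, Fzd5 and Fzd6), where 18.9% of all probe sets did, and above them in 2 of 9 (Lrp5 and Lrp6), where 16% did. Lrp5 had 7.95 and 8.23 against 7.25 and 7.87, a difference of 0.53 ± 0.25 log2 (unadjusted p = 0.0745).

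Averaged over irradiation, 4 of 9 receptors had an unadjusted p under 0.05 for genotype, all lower in CD169-DTR, against 6.33% of all probe sets, and 0 passed in limma (0% of all). Fzd4 had -0.735 ± 0.095 log2 (SE, unadjusted p = 0.00015, adjusted p = 0.683), with 4 of 4 CD169-DTR arrays (4.76 to 5.13) below 4 of 4 WT arrays (5.43 to 6.01). Fzd5 had -0.32 ± 0.099 (unadjusted p = 0.0159, adjusted p = 0.757), with 4.80 to 5.08 in CD169-DTR below 5.19 to 5.38 in WT. Such a complete separation was seen in 2 of 9 receptors and in 1.09% of all probe sets. Fzd3 (-0.567) and Fzd8 (-0.405) were the others under 0.05, and for both the genotypes overlapped. Fzd8 differed by -0.81 log2 without irradiation and by 0 after 2 Gy, so its average comes from the non-irradiated arrays. Fzd3 differed by -0.74 and -0.395. The count of 4 was 2 without WT non-irradiated replicate 2, WT 2 Gy replicate 1 or CD169-DTR 2 Gy replicate 2, and also without both 2 Gy arrays that stood apart. Averaged over genotype, Fzd8 (-0.665 ± 0.157 log2, unadjusted p = 0.00437, adjusted p = 0.377) and Lrp6 (-0.372 ± 0.094, unadjusted p = 0.00618, adjusted p = 0.398) were lower after 2 Gy. For both, the 2 Gy arrays overlapped the non-irradiated ones. Fzd8 differed by -1.07 log2 in WT and -0.26 in CD169-DTR, and Lrp6 by -0.68 and -0.065. These 2 of 9 compare with 9.23% of all probe sets, and 0 of 9 passed against 0.0099% of all. Without CD169-DTR non-irradiated replicate 2 that count was 4.

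A rule that adds a fold of at least 1.5 to an unadjusted p under 0.05 was met by fewer probe sets. In WT after 2 Gy it was met by 2 of 9 receptors, Fzd8 and Lrp6, against 3.31% of all probe sets, and in CD169-DTR after 2 Gy by 0 of 9 against 3.58%. For genotype it was met by 3 of 9 without irradiation (Fzd3, Fzd4 and Fzd8, against 1.89%), by 0 of 9 after 2 Gy (against 3.56%) and by 1 of 9 on average (Fzd4, against 1.05%). For average irradiation it was met by 1 of 9 (Fzd8, against 1.94%), and for the difference of irradiation effects by 3 of 9 (Fzd4, Fzd8 and Lrp6, against 4.01%). Here and above, the shares of all probe sets include dim ones and were not matched to the brightness of the receptors.

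The order of the groups differed between receptors. Fzd4 ran from WT non-irradiated through WT 2 Gy and CD169-DTR 2 Gy to CD169-DTR non-irradiated, with no overlap between neighbours. Lrp6 was highest in WT non-irradiated and lowest in WT 2 Gy cells, and the CD169-DTR groups between them overlap each other. Fzd8 was highest in WT non-irradiated cells, and the other 3 groups overlap between 5.08 and 5.69. Fzd3 was highest in WT non-irradiated cells too, by a margin of 0.06 log2 over the next array, and the WT 2 Gy and CD169-DTR non-irradiated groups below it overlap. In these 4 of 9 receptors both WT non-irradiated arrays lay above the 6 others, a pattern found in 2.35% of all probe sets and in 3.54% of those with a mean above the median of all means. Fzd5 ran lower in CD169-DTR at either dose. Fzd7 spanned 4.37 to 4.63, Ryk 8.81 to 9.57, Lrp5 7.25 to 8.26 and Fzd6 6.26 to 7.61, with groups that mostly overlap.

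Markers of other cells moved with the same groups. Genes of neutrophils and granulocyte-monocyte progenitors, 15 of 15 measured, had a mean of 7.17 and 7.87 log2 in WT non-irradiated cells, the lowest of all arrays. It was 8.83 and 9.33 in WT 2 Gy, 8.24 and 8.83 in CD169-DTR non-irradiated and 8.61 and 8.05 in CD169-DTR 2 Gy cells. In WT after 2 Gy 14 of the 15 were higher, 8 of them at an unadjusted p under 0.05, and in CD169-DTR non-irradiated cells 15 of 15 were higher, 2 of them at that threshold. Of all probe sets, 35.2% were lower and 7.81% were under 0.05 in WT after 2 Gy. For non-irradiated CD169-DTR against WT these shares were 42.2% and 4.38%. On every array 11 of the 15 were above the mark of dim signal. The 14 measured LT-HSC markers had a mean of 9.62 and 9.60 in WT non-irradiated cells and 9.21 to 9.59 on the other arrays. Of these, 9 of 14 were lower in WT after 2 Gy, 4 of them at an unadjusted p under 0.05, and 12 of 14 were lower in non-irradiated CD169-DTR cells, 2 of them at that threshold. Mast cell, basophil and eosinophil markers deviated from their mean by -0.618 and -0.382 in CD169-DTR non-irradiated and by 0.562 and 0.319 in CD169-DTR 2 Gy cells, with 11 of 14 higher after 2 Gy, 5 of them at an unadjusted p under 0.05. Erythroid markers were lower in the same comparison in 12 of 12, 1 of them at that threshold. There 42.6% of all probe sets were lower and 6.77% were under 0.05. Erythroid markers stood 1.09 log2 above their mean in CD169-DTR non-irradiated replicate 2, and megakaryocyte markers 0.832 above theirs in WT 2 Gy replicate 1. Among monocyte and macrophage markers 7 of 15 were never above the mark, nor were 7 of 13 lymphoid and 7 of 13 endothelial and stromal markers. In WT after 2 Gy 12 of 15 monocyte and macrophage markers were higher, 1 of them at an unadjusted p under 0.05. So were 10 of 13 megakaryocyte markers, 3 of them at that threshold. In CD169-DTR against WT after 2 Gy, 13 of 15 and 11 of 13 were lower, 1 of each at that threshold. There 53.5% of all probe sets were lower and 7.57% were under 0.05. The part of these cells in the receptor differences was not tested.

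**Figure D3:**
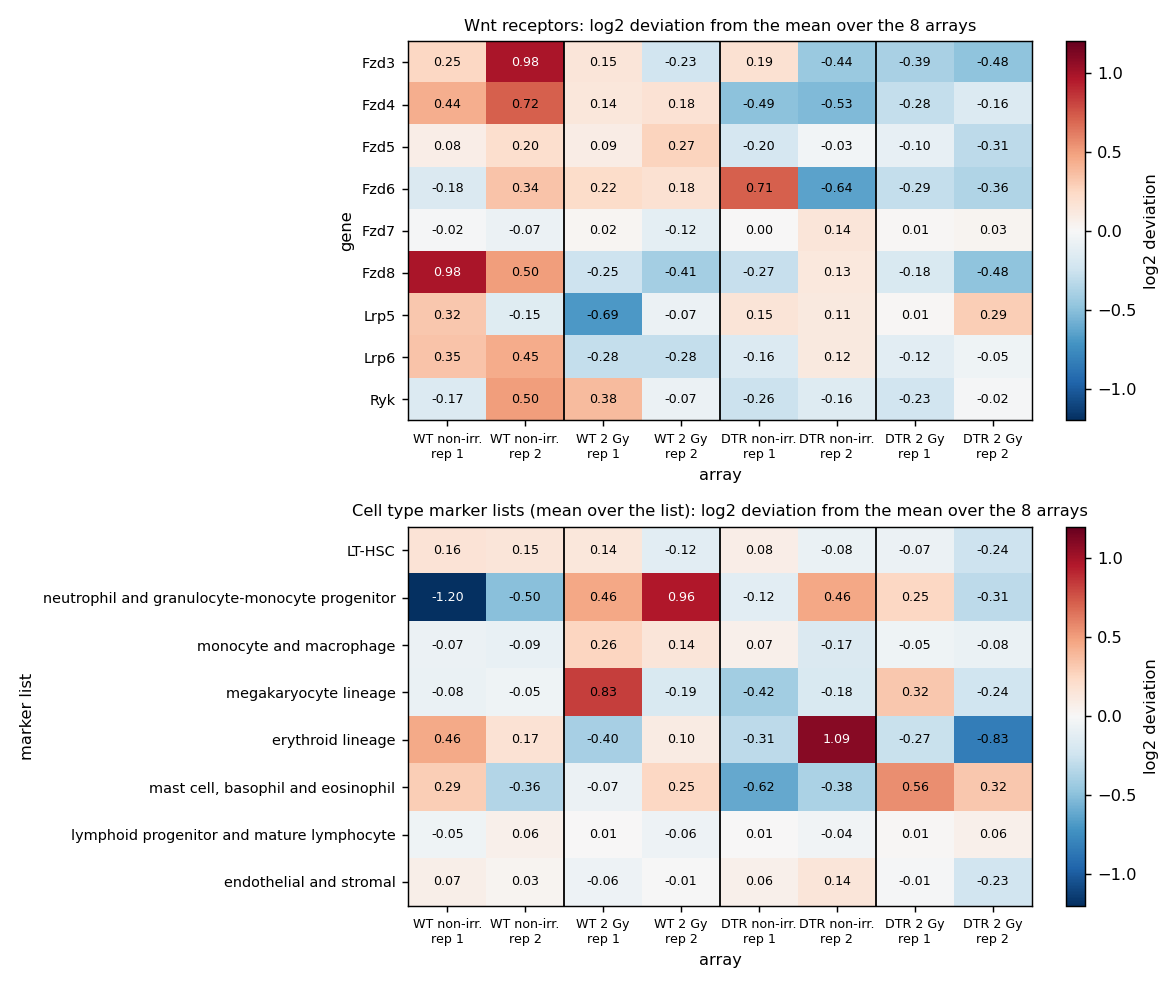
Log2 deviation from the mean over the 8 arrays (colour and number) of each Wnt receptor (top, rows) and of the mean of each cell type marker list (bottom, rows), by array (columns, DTR for CD169-DTR, vertical lines between groups). The WT non-irradiated columns hold the highest Fzd4, Fzd8 and Lrp6 values and the lowest neutrophil and progenitor values, -1.196 and -0.498.

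Among receptors of the family outside the 9, 11 were measured: Fzd1, Fzd2, Fzd9, Fzd10, the kinase-like Ror1, Ror2 and Ptk7, the co-receptor-like Lrp4 and Musk, and Gpr124 (Adgra2) with its partner Reck, which help Wnt7 signal. Fzd9 (5.5 to 6.02), Ptk7 (5 to 5.34) and Reck (5.73 to 6.4) were above the mark of dim signal on all arrays, and Fzd1 on 7. Ror1 was above it on 1 array and Lrp4 on 2, while Fzd2, Fzd10, Ror2, Musk and Gpr124 never were. In limma 0 of 11 passed in any of the 7 comparisons. Reck alone reached an unadjusted p under 0.05, for 2 Gy in CD169-DTR (-0.43 ± 0.156 log2, unadjusted p = 0.0298, adjusted p = 0.662) and for average irradiation (-0.34 ± 0.11, 0.019 and 0.471). The median difference of the 11 was 0.04 log2 in WT after 2 Gy and -0.065 in non-irradiated CD169-DTR.

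The rest of the pathway was taken from lists of ligands, inhibitors, receptor turnover, cytoplasmic and nuclear proteins, target genes and the branch without beta-catenin. With the other receptors, the lists name 126 genes, of which 119 were measured. Ctnnb1, Dvl2, Tcf7, Ccnd1, Rnf43, Apcdd1 and Rock2 are not analysed here, as no probe set carries their symbol alone. In limma 0 of 119 passed in any comparison. After 2 Gy in WT, 1 was higher and 3 lower at an unadjusted p under 0.05 (3.36%, against 7.81% of all probe sets), with a median difference of 0.02 log2. In non-irradiated CD169-DTR, 1 was higher and 0 lower (0.84%, against 4.38% of all probe sets), with a median of -0.025.

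Of the 21 ligands and secretion genes, 0 reached an unadjusted p under 0.05 in any of the 7 comparisons, nor did any of the 15 inhibitors or the 8 genes of R-spondins and receptor turnover. Most of these are dim, so the count says little: 18 of the 21, 12 of the 15 and 6 of the 8 were not above the mark of dim signal on any array. Among the 27 genes of the branch without beta-catenin, 3 were lower in WT after 2 Gy at that threshold (11.1%, against 7.81% of all probe sets): Vangl1, a core planar polarity protein (-0.70 ± 0.26 log2, unadjusted p = 0.033), Plcb2, a phospholipase (-0.545 ± 0.203, 0.0332), and Nfatc3, a calcium-dependent transcription factor (-0.455 ± 0.187, 0.0472). Their adjusted p in limma was 0.598, 0.598 and 0.639. Nkd2, an inhibitor that binds Dishevelled, was higher by 0.465 ± 0.129 (unadjusted p = 0.00955, adjusted p = 0.514), but its WT arrays (4.01 and 3.95 against 4.46 and 4.43) lay below the mark of dim signal.

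In CD169-DTR after 2 Gy, Nfatc2 (-0.61), the surface receptor Cd44 (-0.535), the tankyrase Tnks (-0.595), the beta-catenin binding protein Cby1 (-0.765) and the co-repressor Tle2 (-0.325) were lower at an unadjusted p under 0.05, with adjusted p between 0.547 and 0.695 in limma. With Reck, these were 6 of the 119 genes (5.04%, against 6.77% of all probe sets). In CD169-DTR against WT after 2 Gy, Plcb4 (-0.60), the kinase Rock1 (-0.56) and Tnks (-0.53) were lower at an unadjusted p under 0.05. They were 2.52% of the 119 genes, against 7.57% of all probe sets. Without irradiation Tle3 (0.295) was higher at that threshold (0.84%, against 4.38%). Celsr2, named for its known tie to Fzd8 after its values were seen, lay between 4.74 and 4.97, close to the mark of dim signal and above it on 6 arrays. Axin2, named likewise as a common target gene of beta-catenin, lay between 4.18 and 4.46, below the mark on every array, so a change in its transcript may not be measurable here.

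**Figure D4:**
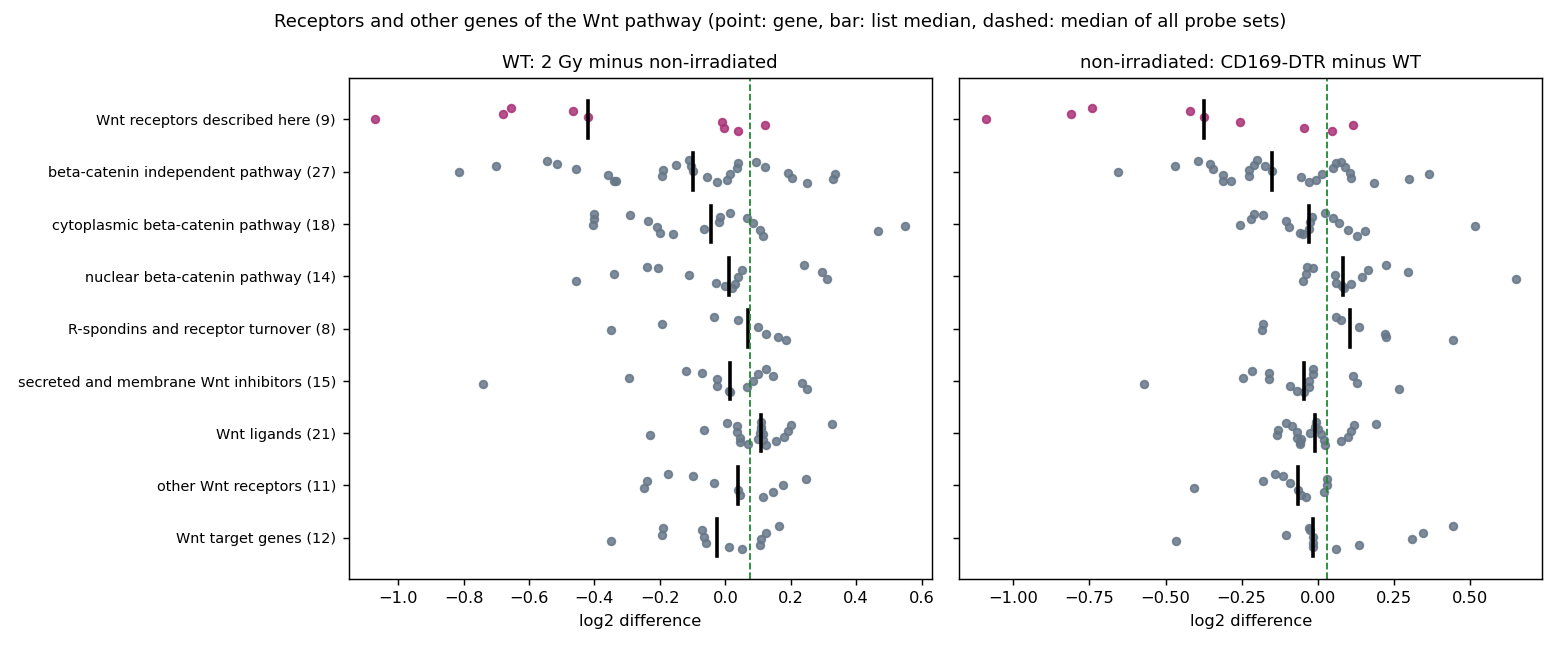
Log2 differences (x axis) of the 9 Wnt receptors and of the other Wnt pathway lists (rows, number of genes in brackets) in WT after 2 Gy (left) and in non-irradiated CD169-DTR against WT (right), with a point for each gene, a bar for the list median and a dashed line for the median of all probe sets (0.075 and 0.03). The medians of the 9 receptors are -0.42 and -0.375; the lists were named with earlier results known and the panels share the WT non-irradiated arrays.

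The genes most like each receptor over the 8 arrays were sought among 15395 probe sets with a mean above the median, as a description of these arrays with no test. Fzd8 was closest to the sorting nexin Snx17 (r = 0.9788) and to Trim14 (0.9618), and Lrp6 to Igsf10 (0.9759) and the heparan sulphate polymerase Ext2 (0.9743). Fzd4 was closest to Nbea (0.9436) and Pdcd6ip (0.9416), Fzd3 to Wdr41 (0.9634) and Zfp263 (0.9514), and Fzd5 to Pcdhb4 (0.9531) and Gm25604 (0.9528). For Lrp5 they were Slfn3 (0.9772) and the co-repressor Tle5 (0.9664), for Ryk Xylt1 (0.9615) and Mir669o (0.9268), for Fzd6 Zfp948 (0.9419) and Kctd21 (0.9414), and for the dim Fzd7 Napa (0.9545) and Pex6 (0.941). No gene was named for more than 1 receptor. The best r among so many candidates over 8 arrays is high through the selection itself, and it reached 0.9545 even for the dim Fzd7. These values therefore do not show that the genes vary together beyond these arrays.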

How the data were processed

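The authors deposited RMA values, as the submitters' processing notes name the method, for each probe set on each of 8 arrays. These deposited values were taken as log2, the scale of RMA, since the table states no base. The scanner software, genome build and annotation version are not given in the sources used here. The platform annotation gave 1 symbol to 30294 of 40161 probe sets, which were tested. Each of the 9 receptors has 1 probe set.

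A model with 4 group means was fitted with limma 3.58.1 (lmFit, eBayes) in R 4.3.3, two-sided, with Benjamini-Hochberg adjustment over the 30294 probe sets within each of 7 comparisons and a threshold of 0.05. It had 4 residual and 2.59 prior degrees of freedom. The code was tested on simulated data. The number of arrays limits the precision. The receptors, pathway lists and marker lists were chosen with earlier results of these data known. Pathway genes were named by the smallest unadjusted p under 0.05, up to 4 per list and comparison, and like genes by the 2 highest Pearson r over the arrays. Alternatives were a prior trend, a dim filter, all probe sets, cyclic loess, median centring, array weights, a replicate block, only the compared groups, an unadjusted threshold with a fold of 1.5, and each array left out. Leaving out both 2 Gy arrays that stood apart was added after the data were seen. Promoter stretches came from RefSeq (GRCm38.p6).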

Additional observations from a re-analysis of the deposited data

Results flagged for a closer look

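Fzd4 moved in opposite directions after 2 Gy in the genotypes: both WT arrays were lower than both their controls, and both CD169-DTR arrays were higher than both of theirs. The difference between the irradiation effects was 0.71 log2, with an unadjusted p of 0.00799 and an adjusted p of 0.874 in limma, so it did not pass. Lrp6 was lower in both CD169-DTR arrays than in both WT arrays without irradiation and higher after 2 Gy. The difference between these genotype effects was 0.615 log2, with an unadjusted p of 0.0149 and an adjusted p of 0.913 in limma. Opposite, complete separation of the arrays by irradiation in the genotypes, as in Fzd4, was seen in 4.44% of the 30294 probe sets. Opposite, complete separation by genotype at the doses, as in Lrp6, was seen in 5.22%.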

How the results depend on the processing

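The number of receptors that passed over all probe sets was 0 in each of the 7 comparisons, and it stayed 0 under every alternative with an adjusted p, the replicate block and each array left out included. At most 3 of the 30294 probe sets passed in a comparison of the main fit, so a steady 0 says little about the receptors. With an unadjusted p under 0.05 and a fold of at least 1.5 in place of the adjusted p, 2 receptors passed for irradiation in WT and 3 for genotype without irradiation. There were 3 for the difference of irradiation effects, 1 for average irradiation, 1 for average genotype and 0 for the remaining 2 comparisons. Of the 18 receptor differences with an unadjusted p under 0.05, 12 lost it under at least 1 alternative and 6 kept it under those run. Fzd3 for genotype without irradiation lost it in 11 of 17, with a highest p of 0.271. Their signs did not turn, which choosing them by p largely fixes. The replicates came from distinct experiments, but whether the number marks the experiment is not stated, and deviations of same-numbered arrays correlated between -0.088 and 0.159 over pairs of groups, so pairing was not assumed. With the replicate block the number of receptors with an unadjusted p under 0.05 was 3 rather than 4 for genotype without irradiation and for average genotype. A second probe set per receptor could not be tried, as none has more than 1. Leaving out an array assumes that its partner varies like the other groups. Dim signal limits Fzd7, Fzd5 and, in CD169-DTR, Fzd4.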
